A study of Homo sapiens with 10 samples.

Results

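A549, a human lung adenocarcinoma line that carries a mutant K-Ras, was profiled on 3 arrays after control siRNA, and these 3 arrays, chosen by their titles, are described here out of 10 in the series. On 1 array the cells had no stimulus, on 1 they had 1 µM nicotine for 18 h, and on 1 they had 100 ng/ml EGF for 18 h. All 3 cultures had been starved of serum for 48 h and carried control siRNA, whose sequence is not given in the sources used here. The question put to them was which transcripts differed after each stimulus, and which differed the same way after both. The other arrays were A549 with ID1 siRNA and nicotine or EGF, and the same 5 conditions in H1650, a lung cancer line with a mutant EGF receptor. Each line and condition had 1 array, so a difference between a pair of arrays has no replicate check, stimulus and array cannot be told apart, and both stimulated controls were set against the same unstimulated array. Nothing in the labels says that the arrays came from separate cultures. RNA came from whole cultures, in which fewer cells with a transcript and less of it per cell cannot be told apart.

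Nicotine acts on nicotinic acetylcholine receptors, ion channels of CHRNA and CHRNB subunits that in lung epithelial cells also feed into Src, PI3K and Raf signalling. EGF binds the EGF receptor, a receptor tyrosine kinase that drives the Ras, Raf, MEK and ERK cascade, which is constitutively fed by mutant Ras in A549. ERK signalling induces immediate early genes such as FOS and EGR1 within the first hour, and then feedback inhibitors such as the DUSP phosphatases and the Sprouty proteins. ID1, the gene the series is about, is a helix-loop-helix protein without a DNA-binding region that ties up basic helix-loop-helix factors, and serum, BMPs and Src induce it.

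ID1 (chromosome 20), the target of the siRNA on the other arrays, had a signal of 1645 on the array labelled unstimulated control, 3719.8 with nicotine and 3049 with EGF. It was thus 2.26-fold and 1.85-fold higher on the stimulated controls. Signal here is the linear MAS5 value, scaled so that the trimmed mean of every array is 500.1. The 2 A549 arrays with ID1 siRNA both read 1343, so the array labelled unstimulated control lay closer to them than to the stimulated controls. In H1650 the 3 control arrays read 5029.9, 4964 and 5121, which is level with and without a stimulus. Whether the label of the unstimulated A549 array is right was not tested, and it is called the array labelled unstimulated control throughout.

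All 13 markers of A549, among them the aldehyde dehydrogenase ALDH1A1 and the aldo-keto reductase AKR1B10, were above the median of all probe sets (66.7) on each of the 3 arrays. Of 16 measured markers of fibroblasts, endothelium and blood cells, 3, 5 and 4 were above it on the array labelled unstimulated control, the nicotine and the EGF control, and the highest read 203, 165 and 157. Ratios of 3' to 5' probe sets were 0.887 to 0.945 for GAPDH and 1.23 to 1.52 for ACTB over the 10 arrays. The EGF control stood apart in range, with a highest signal of 56869 against 30639 to 46205 on the other arrays and the lowest array median, 61.2 against 65.2 to 79.6. In that array the 2503 genes of highest mean signal had a median log2 difference of 0.20 and the 2503 of lowest a median of -0.13, against 0.03 and -0.01 with nicotine.

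Of 12514 genes kept by a filter on dim signal, 108 were at least 2-fold higher on both stimulated controls (0.863% of genes kept) and 251 at least 2-fold lower on both (2.01%). In the nicotine difference 637 genes passed 2-fold (5.09%), 207 of them higher (1.65%) and 430 lower (3.44%). In the EGF difference 845 passed (6.75%), 205 of them higher (1.64%) and 640 lower (5.11%). The 359 genes past 2-fold the same way in both are 2.87% of genes kept. Lower genes therefore outnumbered higher ones in each difference, while the median gene differed by 0.02 with nicotine and -0.03 with EGF on the log2 scale. Centring each array on its median moved the EGF split to 275 higher and 526 lower. Only 6 genes (0.0479%) were past 2-fold in opposite directions. Both differences share the array labelled unstimulated control, so that a value that is off on that array alone appears in both. In H1650, read the same way, 86 genes passed on both stimulated controls (0.687%), 64 of them higher (0.511%) and 22 lower (0.176%). There 130 were higher (1.04%) and 72 lower (0.575%) with nicotine, and 169 higher (1.35%) and 261 lower (2.09%) with EGF.

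A secondary test in limma over all 10 arrays compared the mean of both stimulated A549 controls with the array labelled unstimulated control, and took the spread from how far effects of siRNA and stimulus failed to add up. That lone array is assumed to vary like the others, and only 2 residual degrees of freedom are the gene's own. With Benjamini-Hochberg adjusted p under 0.05, 800 genes changed (6.39%), of which 250 rose (2.00%) and 550 fell (4.40%). Centring each array made this 395 and 525. Leaving out the EGF control left 391 calls, the nicotine control 729, a fit to the 6 control siRNA arrays gave 99, and a fit without an intensity trend gave 25. Below, "rose" and "fell" mean that this limma test was passed, values after ± are limma standard errors on the log2 scale with n = 2 stimulated arrays against 1, and adjusted p is Benjamini-Hochberg adjusted over all genes kept.

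The lower genes were clearly measured on their high side. Of 251, 237 were above the filter on the array labelled unstimulated control, and 184 of 251 passed the limma test, a share the 2-fold rule on the same arrays partly fixes. For these 237 genes the median signal was 436 on the array labelled unstimulated control, 135 with nicotine and 142 with EGF. The same genes had a median of 493 and 452 on the A549 arrays with ID1 siRNA under nicotine and EGF, which is near the array labelled unstimulated control rather than the stimulated controls. In H1650 the median of these genes was 359 without a stimulus, 365 with nicotine and 322 with EGF with median log2 differences of 0.08 and -0.04. The comparison with the siRNA arrays shares the stimulated controls and is a description of levels, with no test.

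PTX3, a secreted pattern-recognition protein of the pentraxin family (chromosome 3), read 1037 on the array labelled unstimulated control, 83.5 with nicotine and 93.8 with EGF. It was 12.4-fold and 11.1-fold lower and fell by 3.55 ± 0.25 (adjusted p = 0.000527). On the siRNA arrays it read 1322 and 1833. AOX1, an aldehyde oxidase (chromosome 2), read 720.5, 74.8 and 84.8 in the same order and fell by 3.18 ± 0.25 (adjusted p = 0.000764). Its other probe set above the filter gave log2 differences of -2.13 and -2.08. Both stimulated controls were low for these genes and lay within a small range of each other.

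ARHGDIB read 937, 116 and 74.1 and fell by 3.34 ± 0.20 (adjusted p = 0.000307), although of its 2 other probe sets 1 gave -1.39 with nicotine and 0.18 with EGF. SULF2, a sulfatase that trims heparan sulfate outside the cell, read 2604, 460.2 and 387 and fell by 2.62 ± 0.18 (adjusted p = 0.000439), with log2 differences of -2.39 and -2.29 on another probe set. COL13A1, a transmembrane collagen, read 819, 97.0 and 142 and fell by 2.80 ± 0.32 (adjusted p = 0.00313). CCN2, the connective tissue growth factor (chromosome 6), read 2907, 451 and 496, was 6.45-fold and 5.87-fold lower and fell by 2.62 ± 0.26 (adjusted p = 0.00167). On the siRNA arrays CCN2 read 2777 and 2774, almost as on the array labelled unstimulated control. These genes make or modify the pericellular matrix or the signals it carries, apart from ARHGDIB.

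**Figure D1:**
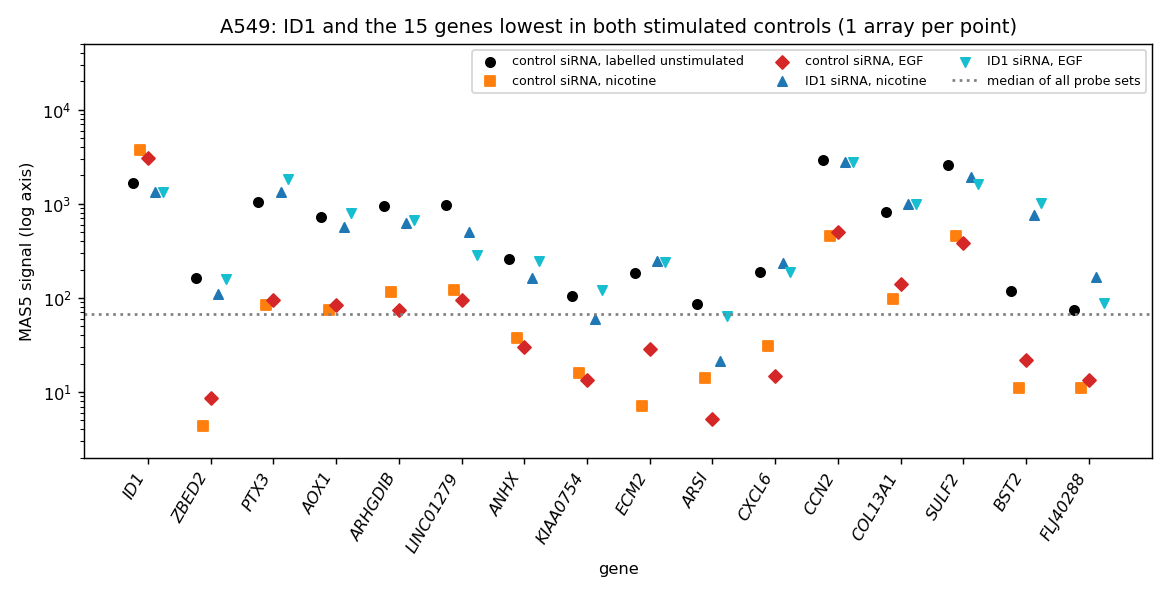
MAS5 signal on a log axis for ID1 and the 15 genes with the largest difference among those lower in both stimulated A549 controls, 1 point per array. For PTX3 the black point (array labelled unstimulated control) is at 1037 and the orange and red points (nicotine and EGF controls) are at 83.5 and 93.8, while the blue points (ID1 siRNA with nicotine or EGF) are at 1322 and 1833; ID1 itself shows the opposite order, with the stimulated controls on top.

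Several of the largest differences ran into the background. ZBED2, a zinc finger repressor, read 162 on the array labelled unstimulated control and 4.38 and 8.68 on the stimulated ones, below the array median, so it was at least 2.49-fold and at least 2.65-fold lower. An "at least" fold takes the higher of the dim value and its array's median. ECM2, an extracellular matrix protein, was at least 2.80-fold and 2.98-fold lower (183 against 7.05 and 28.6), and CXCL6, a neutrophil chemokine, at least 2.87-fold and 3.06-fold lower (187 against 30.7 and 14.6). These 3 genes passed the limma test (adjusted p = 0.00175, 0.00983 and 0.00276). ANHX (262 against 37.0 and 29.8), KIAA0754, ARSI and FLJ40288 had the same form and adjusted p between 0.0118 and 0.0379. LINC01279 read 978, 122 and 95.1 with adjusted p = 0.0800, so it did not pass.

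Gene lists give the shape of the lower set. Of 28 lists, mesenchymal markers had the highest share of members at least 2-fold lower on both stimulated controls (56.2% of 16 kept genes, against 2.01% of all genes kept), followed by invasion and matrix proteases (36.8% of 19), TGF-beta and BMP targets (27.8% of 18), NF-kB and inflammatory cytokines (21.7% of 23), actin and contractile genes (21.4% of 14) and the interferon response (16.7% of 42). Some genes stand in more than 1 list. The lists were chosen with earlier results of these data known, which can partly fix these shares and the list shares given below. They are descriptions, with no set test. In 1 list, stathmins and tubulins, a member was at least 2-fold higher on both.

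**Figure D2:**
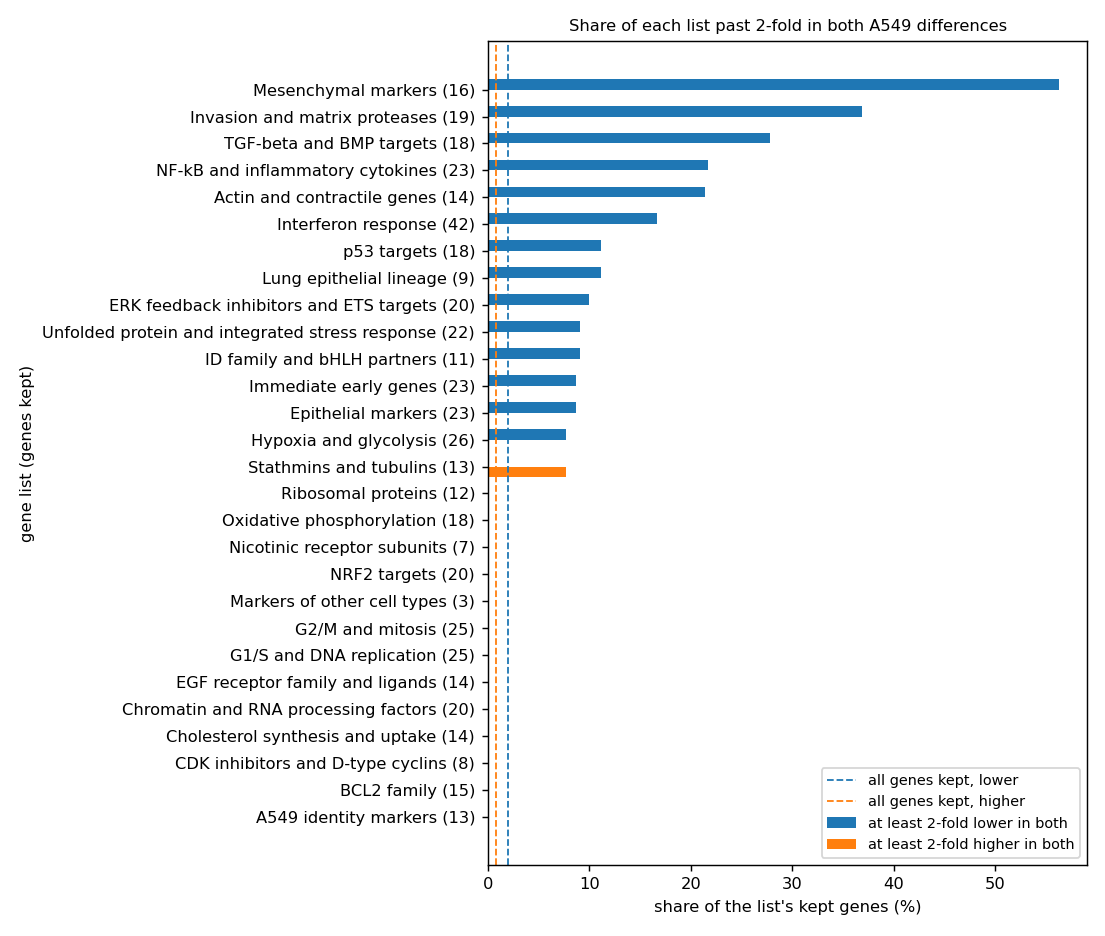
Share of each list's kept genes (number in brackets) that were at least 2-fold lower (blue) or higher (orange) on both stimulated A549 controls, with dashed lines for all genes kept, 2.01% lower and 0.863% higher. Mesenchymal markers reach 56.2% and the proteases 36.8%, and the cell cycle, ribosomal, oxidative phosphorylation and EGF receptor family lists have no bar. The lists were chosen with earlier results of these data known.

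Mesenchymal markers had a median log2 difference of -1.11 with nicotine and -1.34 with EGF, against 0.02 and -0.03 over all genes kept, and 9 of 16 were at least 2-fold lower on both. By limma 7 fell (43.8%, against 4.40% of all genes kept) and 0 rose. ACTA2, smooth muscle actin, read 2072, 477 and 391 and fell by 2.26 ± 0.22 (adjusted p = 0.00167), and TAGLN, the actin-binding transgelin, read 386, 114 and 113 and fell by 1.77 ± 0.34 (adjusted p = 0.0218). Of 2 other TAGLN probe sets, 1 gave -3.69 and -3.63 and 1 gave 0.33 and 0.24. The collagen COL5A1 read 865, 334 and 219 and fell by 1.68 ± 0.17 (adjusted p = 0.00188), with 2 other probe sets also past 2-fold on both. COL1A1 (853, 403 and 223), the matrix glycoprotein SPARC (551, 248 and 158) and tenascin TNC (285, 109 and 80.6) fell as well, by 1.51 ± 0.28, 1.47 ± 0.15 and 1.61 ± 0.22 (adjusted p = 0.0195, 0.00167 and 0.00567).

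N-cadherin, CDH2, the adhesion molecule gained in epithelial to mesenchymal transition, read 3666, 1631 and 1482 and fell by 1.24 ± 0.16 (adjusted p = 0.00453). The transcription factor SNAI2 was at least 2.35-fold and at least 2.50-fold lower (153 against 61.3 and 59.3) without passing (adjusted p = 0.0724), and the collagen cross-linking enzyme LOX (62.8, 26.9 and 6.71) was below the filter on all 3 arrays. Several widely used markers of this list did not pass. Vimentin read 19954, 18080.3 and 30964 (adjusted p = 0.462), ZEB1 1770.2, 1479 and 1351 (adjusted p = 0.641), TWIST1 591, 563 and 464 (adjusted p = 0.587) and fibronectin FN1 5050.0, 3649 and 3381 (adjusted p = 0.0524). Among 23 epithelial markers the medians were -0.06 and -0.04; E-cadherin CDH1 read 1938, 1862 and 1122 (adjusted p = 0.165). By limma 3 of these 23 fell and 0 rose, so the share that fell was above the 4.40% of all genes kept. The 2 that were at least 2-fold lower on both also exceeded the share of all genes kept, 2.01%. These were CDH3 (27.3, 11.1 and 7.79) and ST14 (72.6, 13.7 and 29.9), both near or below the array median on all 3 arrays. The third marker that fell was not past 2-fold on both.

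Actin and contractile genes moved apart. ACTA2, TAGLN and ANKRD1, a muscle ankyrin repeat protein induced by YAP and stretch (195, 47.8 and 41.3, adjusted p = 0.0155), were past 2-fold on both, whereas vinculin VCL rose by 0.66 ± 0.14 (adjusted p = 0.0315). The medians of the 14 kept members were -0.12 and 0.15. TGF-beta and BMP targets had medians of -0.51 and -0.33. Of 18 kept, 6 fell (33.3%, against 4.40% of all genes kept) while ID1 and ID2 rose. Besides CCN2, CCN1 read 4799, 2166 and 2217 and fell by 1.13 ± 0.13 (adjusted p = 0.00273), the latent TGF-beta binding protein LTBP2 read 1223, 354 and 403 and fell by 1.70 ± 0.22 (adjusted p = 0.00478), and the ligand BMP2 read 251, 111 and 57.6 and fell by 1.65 ± 0.28 (adjusted p = 0.0142). GREM1, a secreted BMP antagonist, read 2847, 1019 and 1169, but with adjusted p = 0.398 it did not pass. The inhibitory SMADs were level: SMAD6 read 1264, 1296 and 1339, and SMAD7 read 759.9, 749 and 734.

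Secreted proteases and their inhibitors were the next group. Of 19 kept genes, 7 were at least 2-fold lower on both, with medians of -0.52 and -0.21. By limma 6 fell (31.6%, against 4.40% of all genes kept) and 2 rose. PLAU, the urokinase plasminogen activator, read 6849.7, 1874 and 2925 and fell by 1.55 ± 0.21 (adjusted p = 0.00600). SERPINE2, a serpin that inhibits urokinase and thrombin, read 13927, 4246 and 6308 and fell by 1.43 ± 0.18 (adjusted p = 0.00443). The metalloproteinases MMP7 (matrilysin; 5049, 2278 and 2090.2), MMP2 (gelatinase A; 429.9, 125 and 159) and MMP10 (stromelysin; 468, 135 and 220.0) fell, with adjusted p = 0.00468, 0.0105 and 0.0257, and so did MMP9 (369.5, 184 and 163, adjusted p = 0.0413). In contrast TIMP2, an inhibitor of MMP2, rose by 1.00 ± 0.16 (4711, 8129 and 10874, adjusted p = 0.0105), and the lysosomal cathepsin CTSL rose by 0.64 ± 0.15 (adjusted p = 0.0433). TIMP3 was at least 2.02-fold and 2.15-fold lower without passing (adjusted p = 0.151), and its other probe sets disagreed in direction with EGF (0.51 and -0.84).

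MMP7, MMP10 and IL11, an interleukin-6 family cytokine that also stood among ERK targets and read 1674, 433 and 752 (fell by 1.55 ± 0.24, adjusted p = 0.00955), each hold the letters TGANTCA, bound by AP-1 factors of the FOS and JUN families, in the 250 bases before their start. The sequences are shown because 21 of the 184 lower genes above the filter that had a promoter in the RefSeq table hold these letters on either strand (11.4%), against 3.99% of 10186 genes kept and 6.60% of all 27305 promoters. A match is a description and not a binding site. Promoters are from RefSeq, build GRCh38.p14, 5' to 3' along the gene, with the match in capitals.
IL11, chr19:55370464-55370713, minus strand: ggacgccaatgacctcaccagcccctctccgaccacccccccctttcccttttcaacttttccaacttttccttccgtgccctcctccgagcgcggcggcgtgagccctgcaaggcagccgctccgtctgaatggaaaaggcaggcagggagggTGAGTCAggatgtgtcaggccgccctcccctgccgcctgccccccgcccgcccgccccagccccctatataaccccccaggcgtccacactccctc
MMP7, chr11:102530748-102530997, minus strand: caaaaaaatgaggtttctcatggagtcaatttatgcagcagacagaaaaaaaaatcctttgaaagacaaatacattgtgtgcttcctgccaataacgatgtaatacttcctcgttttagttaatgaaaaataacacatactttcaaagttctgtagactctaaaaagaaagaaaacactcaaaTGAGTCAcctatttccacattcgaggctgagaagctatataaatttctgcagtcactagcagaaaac
MMP10, chr11:102780629-102780878, minus strand: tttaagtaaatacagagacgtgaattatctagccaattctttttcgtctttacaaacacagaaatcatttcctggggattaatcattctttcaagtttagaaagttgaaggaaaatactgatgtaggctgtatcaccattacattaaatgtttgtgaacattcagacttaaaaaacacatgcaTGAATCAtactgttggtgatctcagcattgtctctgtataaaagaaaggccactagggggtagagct
The AP-1 genes themselves varied: JUN read 4264, 1535 and 2462 and fell by 1.13 ± 0.13 (adjusted p = 0.00302), FOSL2 read 2015, 1177 and 1035 and fell by 0.87 ± 0.13 (adjusted p = 0.00812), and FOSL1 read 509, 467 and 503 (adjusted p = 0.845). Other letters searched were not more common among the lower genes than among genes kept for TGACGTCA (cAMP response element, 1.09% against 2.82%), CCGGAAGT (ETS factors, 1.09% against 7.16%) and GGGGCGGGG (SP and KLF factors, 25.5% against 26.8%). The E-box CANNTG, bound by the bHLH factors that ID proteins hold back, was in 58.2% against 53.6%.

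The interferon response, genes that interferons induce in antiviral defence, was further below the array labelled unstimulated control with nicotine than with EGF, a gap that was not tested. Of 42 kept members 21 were at least 2-fold lower with nicotine, 8 with EGF and 7 on both. Over all genes kept the shares were 3.44% with nicotine, 5.11% with EGF and 2.01% on both. The medians of the list were -1.08 and -0.45. By limma 20 fell (47.6%, against 4.40% of all genes kept) and 0 rose. In H1650 the medians were 0.02 with nicotine and -0.78 with EGF, on 3 arrays none of which is shared with A549. IFI27 read 2668, 303 and 1175 and fell by 2.16 ± 0.33 (adjusted p = 0.00955), and on the siRNA arrays it read 11453 and 16152. The GTPase MX1 (1091, 361 and 615) and the nucleotide kinase CMPK2 (764, 217 and 428) fell by 1.21 ± 0.13 and 1.33 ± 0.16 (adjusted p = 0.00245 and 0.00409). IFITM1, which blocks viral entry, read 1779, 488 and 854 and fell by 1.46 ± 0.20 (adjusted p = 0.00549).

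ISG15 and IFIT1 were low with nicotine and closer to the array labelled unstimulated control with EGF. ISG15, a ubiquitin-like modifier, read 3686, 1123 and 3599 (adjusted p = 0.0962), and IFIT1, which binds viral RNA, read 2910.0, 712 and 2343 (adjusted p = 0.0740). RIGI and OAS1 were highest with EGF. The RNA sensor RIGI read 698, 891 and 1078 (adjusted p = 0.107), and OAS1 read 1755, 1437 and 2621 (adjusted p = 0.614). Leaving out the EGF control, which stood apart in range, gives the 21 members lower with nicotine. On the A549 siRNA arrays MX1 read 5755 and 7894, and ISG15 12151 and 18488, above all 3 control arrays.

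BST2, the virion-retaining protein tetherin, GBP1, an interferon-induced GTPase, and IFI27 hold the core of the interferon-stimulated response element, read by STAT2 and IRF9 and searched as GAAA, then 2 bases of any kind, then GAAA again. These letters were on either strand in 12 of the 184 promoters of lower genes above the filter (6.52%), against 2.27% of those of genes kept and 3.07% of all promoters. Among promoters of the higher genes above the filter 0 of 51 held them, too few promoters to tell 0 from 2.27%. Among the 12 lower genes with these letters were also EPSTI1, IFI44L, IFITM1 and CD274. In BST2 and IFI27 the match occurs 2 times, overlapping in BST2 and on opposite strands in IFI27.
BST2, chr19:17405631-17405880, minus strand: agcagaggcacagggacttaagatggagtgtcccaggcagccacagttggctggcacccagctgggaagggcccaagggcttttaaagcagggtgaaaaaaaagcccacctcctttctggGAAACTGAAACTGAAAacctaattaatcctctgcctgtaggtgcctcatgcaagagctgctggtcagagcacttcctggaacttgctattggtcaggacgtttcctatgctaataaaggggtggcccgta
IFI27, chr14:94110486-94110735, plus strand: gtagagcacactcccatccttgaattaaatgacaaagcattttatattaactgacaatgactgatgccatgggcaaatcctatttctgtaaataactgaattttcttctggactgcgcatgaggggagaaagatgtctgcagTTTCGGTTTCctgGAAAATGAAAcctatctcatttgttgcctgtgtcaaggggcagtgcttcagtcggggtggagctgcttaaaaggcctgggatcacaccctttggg
GBP1, chr1:89065209-89065458, minus strand: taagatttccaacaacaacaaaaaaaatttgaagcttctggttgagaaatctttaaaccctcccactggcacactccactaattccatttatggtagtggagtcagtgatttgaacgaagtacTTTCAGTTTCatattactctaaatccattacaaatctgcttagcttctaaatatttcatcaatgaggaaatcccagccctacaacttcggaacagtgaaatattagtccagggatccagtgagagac
BST2 read 119, 11.0 and 21.7 and was at least 1.83-fold and at least 1.95-fold lower, with 754 and 1024 on the siRNA arrays. GBP1 read 345, 102 and 50.9 and fell by 2.26 ± 0.31 (adjusted p = 0.00589). EPSTI1 (197, 42.8 and 72.3) and IFI44L (309.5, 25.0 and 147) fell with adjusted p = 0.00345 and 0.0267.

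NF-kB targets and inflammatory cytokines had medians of -0.52 and -0.56, with 5 of 23 at least 2-fold lower on both. By limma 9 fell (39.1%, against 4.40% of all genes kept) and 0 rose. The neutrophil chemokine CXCL1 read 15119, 5927 and 6229 and fell by 1.32 ± 0.21 (adjusted p = 0.0105), and CXCL2 read 6452, 3041 and 3124 and fell by 1.07 ± 0.16 (adjusted p = 0.00861). CCL20 (2438, 997 and 987) and the monocyte chemokine CCL2 (2641, 971 and 752) fell by 1.30 ± 0.18 and 1.63 ± 0.34 (adjusted p = 0.00566 and 0.0292). TNFAIP3, which deubiquitinates signalling proteins to end NF-kB responses, read 2049.9, 803 and 651 and fell, being 2.55-fold and 3.15-fold lower (adjusted p = 0.0102). CXCL8 (14977, 7142 and 10186) and IL6 (318, 189 and 183) fell by 0.81 ± 0.17 and 0.77 ± 0.19 (adjusted p = 0.0300 and 0.0489). The inhibitor NFKBIA (4334, 4518 and 4853, adjusted p = 0.684) and PTGS2, the inducible cyclooxygenase (8717, 9593 and 10479.6, adjusted p = 0.495), were not lower.

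The p53 targets shared a smaller difference. Of 18 kept, 10 fell (55.6%, against 4.40% of all genes kept) and 0 rose. Only 2 were at least 2-fold lower on both (11.1%, against 2.01%), with medians of -0.60 and -0.65. FAS, the death receptor, read 2709, 754 and 748 and fell by 1.85 ± 0.17 (adjusted p = 0.00123), and its 3 other probe sets were all lower on both. CDKN1A, the CDK inhibitor p21, read 8015, 3639.9 and 4019 and fell by 1.07 ± 0.13 (adjusted p = 0.00429), 2.20-fold with nicotine and 1.99-fold with EGF, just short of the limit. The ubiquitin ligase MDM2 (7325, 4477 and 3857), the apoptosis effector BAX (2636, 1515 and 1407) and the RNA-binding protein ZMAT3 (2211, 1185 and 763) fell by 0.82 ± 0.13, 0.85 ± 0.13 and 1.22 ± 0.15 (adjusted p = 0.0119, 0.00854 and 0.00375). SESN2, a stress-induced inhibitor of mTORC1, read 641, 301 and 317 (adjusted p = 0.0217). GDF15 (5382, 4665 and 6165), DDB2 (2180.0, 1955 and 1945) and PERP (19951, 17764 and 25994) did not pass.

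Genes of the unfolded protein and integrated stress response were slightly lower in the median (-0.32 and -0.20). Of 22 kept, 5 fell (22.7%, against 4.40% of all genes kept): VLDLR, SESN2, ATF3 and the serine synthesis enzymes PHGDH and PSPH. VLDLR, a lipoprotein receptor, read 920.0, 320.2 and 353 (adjusted p = 0.00345), while ATF4 (13952, 12722 and 15247) and DDIT3 (458, 381 and 312) did not pass. In hypoxia and glycolysis 4 of 26 fell (15.4%, against 4.40%) and 1 rose, with medians of 0.03 and 0.07. PFKFB4, which sets the fructose bisphosphate level, read 1340.2, 493 and 514 and fell by 1.41 ± 0.18 (adjusted p = 0.00425), and hexokinase HK2 was at least 1.90-fold and 2.02-fold lower (124 against 37.6 and 12.5). LAMP3, a lysosomal protein of type II pneumocytes, read 488, 134 and 163 and fell by 1.73 ± 0.17 (adjusted p = 0.00175), the single one of the 9 lung lineage genes kept that was past 2-fold in both differences.

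**Figure D3:**
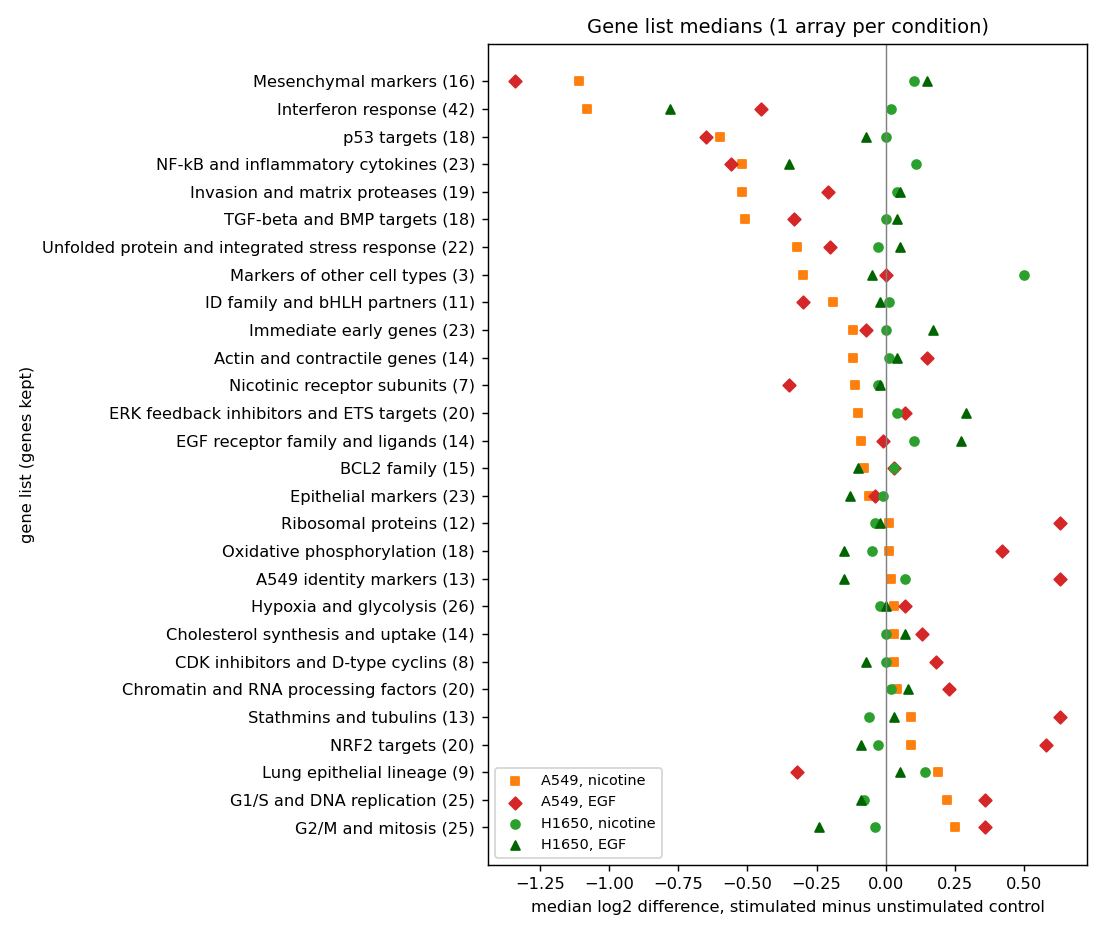
Median log2 difference of each gene list between a stimulated control and the unstimulated control of the same line, 1 array per condition. In A549 the mesenchymal list lies at -1.11 (nicotine) and -1.34 (EGF) against 0.10 and 0.15 in H1650; the ribosomal list lies at 0.01 and 0.63 in A549.

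Immediate early genes had medians of -0.12 and -0.07, the latter turning to 0.03 and 0.04 under quantile normalization and array centring. Of 23 kept, 6 fell (26.1%, against 4.40% of all genes kept) and 1 rose. EGR1 read 234, 282 and 461 (adjusted p = 0.212), FOS read 75.1, 77.8 and 80.2, and IER3 read 8377, 8109 and 14011 (adjusted p = 0.275). NR4A1, an orphan nuclear receptor, was the one that rose, by 1.11 ± 0.25 (345, 501 and 1115, adjusted p = 0.0354). The stress factor ATF3 (454, 259.7 and 238) and KLF6 (3266, 1893 and 1743) fell, by 0.87 ± 0.19 and 0.85 ± 0.17 (adjusted p = 0.0354 and 0.0252). MYC read 3720.5, 2473 and 2913 (adjusted p = 0.0580).

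Of 20 ERK feedback inhibitors and ETS targets, IL11 fell (5.00%, against 4.40% of all genes kept) and none rose (against 2.00%). The share that fell was thus near that of all genes, and the medians were -0.10 and 0.07. The ERK phosphatase DUSP6 read 3981, 3619 and 4081 (adjusted p = 0.845), DUSP4 9089, 9189.6 and 14186 (adjusted p = 0.387), and SPRY4 492, 526 and 731 (adjusted p = 0.324). ETV5, an ETS factor downstream of ERK, read 2582, 2611 and 2593. PHLDA1 read 8839.9, 10279 and 16246 (adjusted p = 0.0934). Of the genes named here, DUSP6, DUSP4, SPRY4 and PHLDA1 were highest on the EGF control, and the cause was not tested. On that array the 2503 genes of highest mean signal had a median log2 difference of 0.20 as a group.

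In the EGF receptor family, EGFR read 2848, 2054 and 2444 (adjusted p = 0.163), ERBB2 939, 936 and 896, and the ligand TGFA 1562, 1419 and 1613. ERRFI1, a feedback inhibitor that binds the receptor's kinase, rose by 0.56 ± 0.12 (3714, 4938 and 6076, adjusted p = 0.0318). The ligand HBEGF fell by 0.87 ± 0.16 (544, 266 and 336, adjusted p = 0.0169). Epiregulin, EREG, read 6204, 5325 and 9304 (adjusted p = 0.665). None of the 14 kept members was at least 2-fold changed on both, against 2.87% of all genes kept changed the same way. Of 11 measured nicotinic receptor subunits 7 were kept, and limma called 0 of them, against 6.39% of all genes kept. With 14 and 7 members, 0 cannot be told apart from these shares. CHRNA5, the subunit linked to smoking behaviour, read 938, 1053 and 775 (adjusted p = 0.890), and CHRNB2 read 301, 177 and 178 (adjusted p = 0.177). The other kept subunits, CHRNA2, CHRNA3, CHRNA9, CHRNA10 and CHRNB1, lay between 29.1 and 231 on the 3 arrays.

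Among the ID genes, ID1 rose by 1.03 ± 0.13 (adjusted p = 0.00468), and ID2 read 5446, 9087 and 13553 and rose by 1.03 ± 0.21 (adjusted p = 0.0254). ID3 read 6489.6, 4646 and 5256 (adjusted p = 0.104), and ID4 read 165, 76.6 and 68.6, lower on both without passing (adjusted p = 0.0505). Without an intensity trend the p of ID1 was 0.103. The bHLH partners were not called: TCF3 read 1084, 916 and 849, TCF4 2308, 1475 and 1304, and TCF12 6202, 5440.3 and 5281. The ID genes thus did not differ in 1 direction, with ID1 and ID2 higher and ID3 and ID4 lower on both stimulated controls.

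The higher set was dimmer than the lower set. Of 108 genes, 67 were above the filter on both stimulated controls, 26 were below it on all 3 arrays, and 80 were among the 2503 genes of lowest mean signal, against 120 of the 251 lower genes. By limma 55 of 108 rose (50.9%, against 2.00% of all genes kept), a share the 2-fold rule on the same arrays partly fixes. The 67 had a median log2 signal of 6.21 on the array labelled unstimulated control, 7.63 over both stimulated controls and 7.28 over both siRNA arrays. RASD1, a Ras-like GTPase induced by dexamethasone (chromosome 17), read 144, 539 and 542, was 3.74-fold and 3.76-fold higher and rose by 1.91 ± 0.42 (adjusted p = 0.0348). In H1650 RASD1 read 15.1, 76.6 and 57.0, also higher on both stimulated controls, but its unstimulated and EGF values there were below the filter. RASD1 was the only one of the 15 largest whose signal was above the filter on the array labelled unstimulated control.

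For the other 14 only a bound on the fold can be given. CYP3A4, a drug-metabolizing cytochrome P450, read 14.6, 232 and 136 and was at least 3.51-fold and at least 2.05-fold higher, and ADAM33, a membrane metalloprotease, read 38.2, 398 and 291 and was at least 6.02-fold and 4.40-fold higher. These 2 rose with adjusted p = 0.00165 and 0.00661. For FBXO36, PKD2L1, TRPM4, GPR21, NPR1, TRMT44, OR4D1, OGFRP1, TWF2-DT, NTM, CORO1A and RASL11B the bounds ran from 1.02-fold to 1.91-fold. TRPM4, OR4D1, OGFRP1, TWF2-DT and RASL11B did not pass the limma test (adjusted p from 0.0548 to 0.200).

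Better measured higher genes had smaller folds, and the following were chosen after their values were seen. GSPT1, the translation termination factor eRF3a, read 3292, 7244 and 8069 and rose by 1.22 ± 0.14 (adjusted p = 0.00302), with 2386 and 2413 on the siRNA arrays. VAMP3, a SNARE of recycling endosomes, read 2374, 5521 and 6672 and rose by 1.35 ± 0.14 (adjusted p = 0.00188), with 1991 and 1869.9 on the siRNA arrays. HIPK3, a nuclear kinase, read 2038, 4344 and 4732 and rose by 1.15 ± 0.12 (adjusted p = 0.00167), with 1566 and 1716. AAGAB, an adaptor assembly factor, read 1465, 3033 and 3368 and rose by 1.13 ± 0.12 (adjusted p = 0.00273), with 1330.4 and 1262. PCBP1, a poly(C)-binding protein, read 5600, 11426 and 14647 and rose by 1.21 ± 0.15 (adjusted p = 0.00453), with 4485 and 4317. In all 5 both siRNA arrays were below both stimulated controls. That the array labelled unstimulated control was below them too follows from the 2-fold rule. Because these genes were chosen with their values seen, this describes the 5 and not the higher set. Over the 67 higher genes above the filter, both siRNA arrays were below both stimulated controls for 39 and above both for 7. Over all 12514 genes kept these counts were 3442 and 4359. The 67 were chosen for high signals on the stimulated controls, which partly fixes their split. CARD19, with 293, 681 and 781, had 659 and 809 on the siRNA arrays. Of the 2 other AAGAB probe sets above the filter both were higher, by 0.31 to 0.71 on the log2 scale.

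Cell cycle genes were slightly higher on both. Of 25 G1/S and replication genes 20 were higher on both stimulated controls, with medians of 0.22 and 0.36, and of 25 G2/M genes 21 were higher, with medians of 0.25 and 0.36, while over all genes kept 4659 were higher on both and 4703 lower. None reached 2-fold. CCNE2 (677, 938 and 993), TK1 (2320.5, 3204 and 3589), AURKA (4711, 6419.7 and 7149), TPX2 (3092, 4198 and 4757) and UBE2C (3489, 4884 and 5712) rose by 0.51 to 0.60 (adjusted p from 0.0257 to 0.0446). MKI67, the proliferation antigen, read 1441, 1823 and 1736 (adjusted p = 0.257), and CDK1 read 12398, 13348 and 18128 (adjusted p = 0.268). The neuronal stathmin STMN3, which destabilizes microtubules, read 137, 347 and 301 and rose by 1.24 ± 0.28 (adjusted p = 0.0354), and gamma-tubulin TUBG1 rose by 0.63 ± 0.12 (adjusted p = 0.0191).

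The EGF medians of lists of abundant transcripts depended on the scaling. Under the deposited scaling the EGF medians were 0.63 for ribosomal proteins, 0.42 for oxidative phosphorylation, 0.63 for stathmins and tubulins, 0.58 for NRF2 targets and 0.63 for A549 markers, against 0.01 to 0.09 with nicotine. Array centring left them above 0, at 0.74, 0.53, 0.74, 0.69 and 0.74, whereas quantile normalization gave -0.00, 0.05, 0.14, -0.02 and 0.05. For HMOX1, heme oxygenase, which belongs to the NRF2 list, the direction was downward (6008, 3969 and 2477; fell by 0.94 ± 0.15, adjusted p = 0.0109). The mesenchymal medians remained at -1.08 and -1.20 and the interferon medians at -1.04 and -0.33 under quantile normalization.

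The same contrast in H1650 gave 0 calls in limma (9 calls after centring each array). At an unadjusted p under 0.05 there were 595 of 12514 genes, no more than this cutoff passes when nothing differs. The difference between lines was tested in the same fit, and 127 genes passed (1.01%), with 28 higher in A549 (0.224%) and 99 lower (0.791%). Of the 251 lower genes 74 were among them, and of the 108 higher genes 14, against 1.01% of all genes kept. Both sets were chosen for their A549 difference, which is part of this test, so these counts are partly fixed by the choice. Over all genes kept, centring each array gave 105 higher and 125 lower. In a fit to the 6 control arrays or without an intensity trend 0 passed. PTX3 differed by -3.31 ± 0.36 between the lines (adjusted p = 0.00923), with 2651, 2796 and 1793 in H1650. CCN2 differed by -3.14 ± 0.37 (adjusted p = 0.0105): in H1650 it read 1497 without a stimulus, 1439 with nicotine and 3178 with EGF.

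SULF2, ACTA2 and COL5A1 differed by -2.33 ± 0.25, -2.37 ± 0.31 and -1.67 ± 0.25 (adjusted p = 0.00923, 0.0144 and 0.0214). BST2 passed the same test (adjusted p = 0.00576), but both stimulated A549 signals were below the filter (11.0 and 21.7), so the size of its difference was not resolved. IL11 differed by -2.41 ± 0.33 (adjusted p = 0.0171), with 111, 148 and 275 in H1650. FAS, PLAU, SERPINE2 and MMP7 also differed (adjusted p from 0.0200 to 0.0478). On the higher side LRRC1, a polarity protein, read 446, 1265 and 1094 in A549 and 1055, 881 and 737 in H1650 and differed by 1.79 ± 0.26 (adjusted p = 0.0191), and AQP3, a water and glycerol channel, read 2643, 5561 and 7587 against 3758, 3499 and 1672 and differed by 1.93 ± 0.29 (adjusted p = 0.0219). ID1 differed by 1.03 ± 0.19 (adjusted p = 0.0488). For ZNF469 and AGAP2 the difference (-4.38 and -4.35) rests in part on H1650 signals below the filter without a stimulus (9.56 and 24.5).

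**Figure D4:**
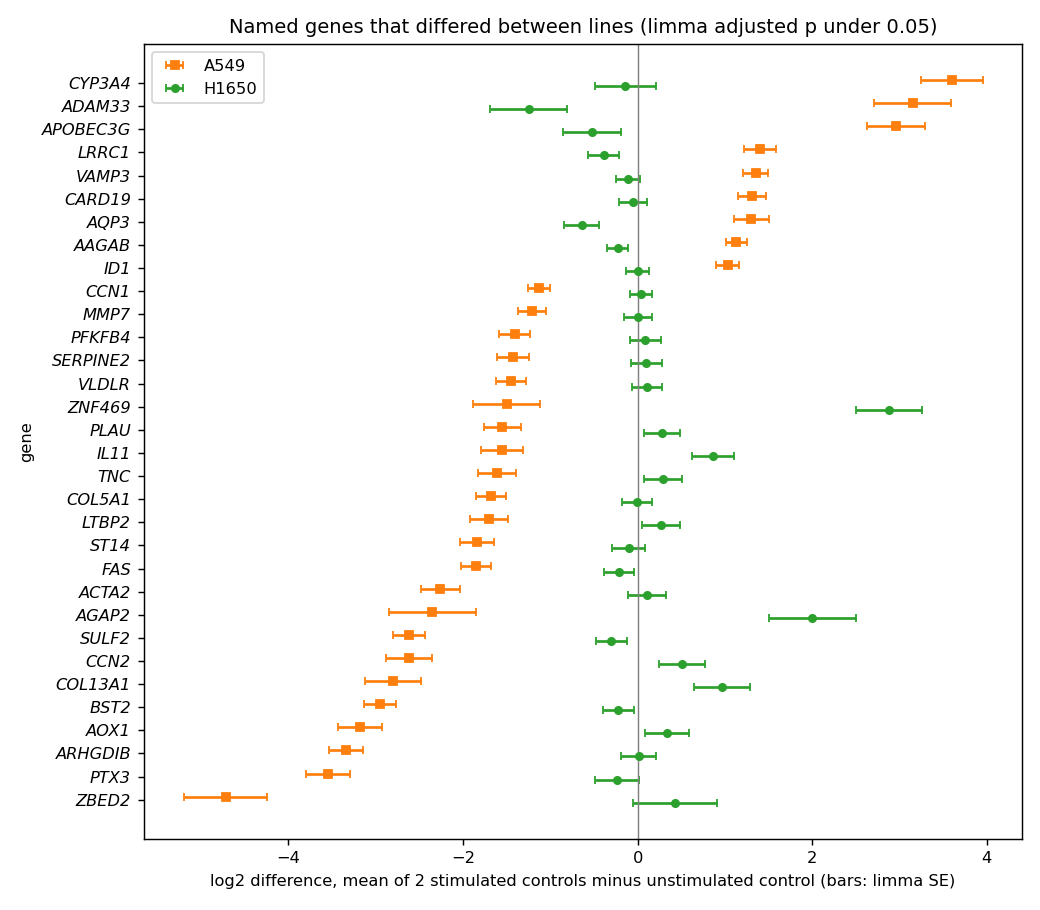
Log2 difference between the mean of both stimulated controls and the unstimulated control in A549 (squares) and H1650 (circles) for the named genes whose difference between lines passed limma, with limma standard errors as bars. PTX3 lies at -3.55 in A549 and -0.24 in H1650, VAMP3 at 1.35 and -0.11, and ID1 at 1.03 and 0.00.

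Genes with unlike values after the 2 stimuli were mostly dim. CDH24, a cadherin, read 166 on the array labelled unstimulated control and 183 with nicotine, but 9.46 with EGF, at least 2.72-fold lower. Its other probe set above the filter gave log2 differences of 0.60 with nicotine and 0.11 with EGF, so it showed no drop. CDH24 did not pass the limma test (adjusted p = 0.226). VGLL1 (1.09, 1.17 and 15.2), MIA (3.82, 3.76 and 47.1), SH3GL2, CLEC7A, SLC1A6, ZNF677, PAK6, SPRR2B and IKZF2 were below the filter on all 3 arrays. At the edge of the rule, TJP3 (2.04-fold and 2.01-fold) and CDC42BPG (38.8, 78.4 and 79.8) were just inside as higher genes, and CA8 (560.3, 280.1 and 258) and TRIM29 (215, 107 and 82.7) as lower ones. NAV1 (85.8, 229 and 171), PALM (88.2, 176 and 192), ABI3BP (81.1, 40.5 and 31.2) and SLC2A10 (2.87, 1.44 and 1.04) were just outside.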

How the data were processed

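The series holds 10 Affymetrix U133 Plus 2.0 arrays, 1 per line and condition. The deposited values are linear signal intensities, scaled to a trimmed mean of 500.1. The submitters' processing notes list GCOS 1.4 and MAS5 as the authors' tools. The labels speak of a log2 transformation, but the values are linear, so log2 was taken here. Precision is limited by the number of arrays.

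From the 54675 probe sets came out 62 controls, 1801 that map to more than 1 symbol and 11721 that map to none. The 41091 with 1 symbol (41037 matched by Entrez identifier) gave 19775 genes, each by its probe set of highest mean log2 signal, and 12514 were kept whose mean reached the probe set median (log2 6.06, signal 66.7). Differences of log2 signal were counted at 2-fold without a test. Limma 3.58.1 in R 4.3.3 fitted all 10 arrays with 4 terms per line (unstimulated control, stimulated control, ID1 siRNA, EGF against nicotine), an intensity trend, 2 residual and 6.56 prior degrees of freedom, and Benjamini-Hochberg adjustment, and was tested on simulated data. Motifs were searched on both strands in the 250 bases before each start, leaving out the transcribed part of the RefSeq windows.

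Named genes are ID1, up to 15 per direction by the smaller of both differences, up to 6 per list and direction, genes with unlike differences, genes that differed between lines, and genes at the edge of the rule. Other list members and the abundant higher genes were chosen after their values were seen. The members and the 28 lists were chosen with earlier results of these data known. Alternatives were other scalings, filters, an added 16, the mean of probe sets, 1.5-fold, no trend and other arrays.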

Additional observations from a re-analysis of the deposited data

Results flagged for a closer look

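The stimulated minus unstimulated control difference was unlike in A549 and H1650 for 127 genes by limma's test (Benjamini-Hochberg adjusted p under 0.05). Values here are that log2 difference in A549 minus that in H1650. Stimulus and array cannot be told apart in it. Each line has 1 unstimulated array, so the comparison rests on that array in both lines. Matrix, contractile and protease genes were lower in A549 by this measure: CCN2 -3.14, ACTA2 -2.37, SULF2 -2.33, LTBP2 -1.97, TNC -1.90, PLAU -1.83, COL5A1 -1.67, SERPINE2 -1.52, MMP7 -1.21 and CCN1 -1.17. Signalling, immune and metabolic genes were lower too, with PTX3 at -3.31, IL11 at -2.41, FAS at -1.64, VLDLR at -1.56 and PFKFB4 at -1.50. AOX1 stood at -3.52 and ARHGDIB at -3.35. ZBED2 (-5.15), ZNF469 (-4.38), AGAP2 (-4.35), COL13A1 (-3.77), BST2 (-2.73) and ST14 (-1.74) have at least 1 control array below the filter, so their sizes are uncertain.

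Higher in A549 by the same test were ID1 (1.03), AQP3 (1.93), LRRC1 (1.79), VAMP3 (1.46), CARD19 (1.36) and AAGAB (1.35). ADAM33 (4.40), CYP3A4 (3.74) and APOBEC3G (3.48) were also higher, with signals below the filter on the A549 array labelled unstimulated control, so their sizes are uncertain too. APOBEC3G was below the filter on all 3 A549 control arrays (3.92, 23.4 and 39.7).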

How the results depend on the processing

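No paired analysis was possible because each line and condition has 1 array and the labels give no replicate numbers. The cause of the shifts below was not tested, except that a stricter or absent filter, or 1.5-fold, changes how many genes can be counted. Without a filter on dim genes the counts at 2-fold were 3641 with nicotine, 4079 with EGF and 1816 on both. With a filter at the 75th percentile they were 180, 245 and 119, and at 1.5-fold 1908, 2585 and 1172. With 1 stimulated control left out the third count is that of the other stimulus, 637 to 845. Limma calls in A549 were 524 without a filter, 138 with the mean of all probe sets, 25 without an intensity trend and 99 with 6 control arrays, and 391 to 729 with 1 stimulated array left out. In H1650 the 0 calls became 1 under quantile normalization, 9 after array centring, 1 with the 75th percentile filter, and 4 with either stimulated A549 array left out. The 127 genes that differed between lines became 230 after array centring, 75 without a filter, 262 at the 75th percentile, 2 with the mean of probe sets, 0 without a trend and 0 with 6 control arrays, and 158 to 211 with 1 stimulated array left out. Of 65 named genes that limma called, 63 were still called under quantile normalization, 65 after centring, 53 without a filter, 9 without a trend and 28 with 6 control arrays. With the mean of all probe sets 49 of them were tested and 26 still called, and 0 of 26 named line differences tested were. No named gene changed direction in both differences under the scalings, filters and probe set rules run. Dim signals limit the higher set most: with 16 added to the signal 60 of its 108 genes remained, against 207 of 251 lower ones.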
